A study of Mus musculus with 6 samples.

Results

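The 9 genes *Cldn1*, *Cldn5*, *Cldn11*, *Cldn22*, *Ocln*, *Tjp1*, *Esam*, *F11r* and *Jam2* encode tight junction proteins of the vessel wall and of the perineurium, the sheath around nerve bundles. They were taken by symbol from the 32285 genes counted in each library, and all 9 had UMIs in every library. Live tdTomato+ cells were sorted from the back skin of mice and their transcripts counted by droplet scRNA-seq, with 1 library per mouse and 2 mice per group. WT telogen mice (PD20, the resting stage of the hair cycle) and WT anagen mice (PD32, the growth stage) carried tdTomato, Cdh5-CreERT2 and Krt14-H2BGFP, with strain label C57BL/6;CD1. Alk1 KO mice (PD25, telogen) carried Alk1 flox/flox, tdTomato and Cdh5-CreERT2, without Krt14-H2BGFP, with strain label C57BL/6. A genotype field of the KO labels reads wild type, while their descriptions give the floxed allele, which was followed here. Tamoxifen (200 µg/g at PD17) was given to every mouse, so that Cre in the Cdh5 (VE-cadherin) lineage marked cells with tdTomato and, in the floxed mice, deleted Alk1 in the same lineage. Whether a given sorted cell had lost Alk1 was not measured. Age, strain label, reporter and genotype all differ between KO and WT telogen and cannot be told apart, and the WT telogen libraries are the controls of both the anagen and the KO comparison.

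Tight junctions seal the gaps between neighbouring cells of a sheet. Claudins are the membrane proteins that form the strands and set which ions and solutes pass, occludin joins the same strands, and ZO-1, the product of *Tjp1*, ties them to actin on the inner side. ESAM, JAM-A (*F11r*) and JAM-B (*Jam2*) are adhesion proteins of the immunoglobulin superfamily that sit at the same contacts. Claudin-5 is the main claudin of endothelial cells (ECs) and is best known from the blood-brain barrier. Claudin-1 is known from the perineurium and the epidermis, where it is needed for barrier function, and claudin-11 is known from myelin and the testis.

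The libraries held 10615358 to 43317677 UMIs, and 20941 of 27418 barcodes were kept, with median depths of 4371 to 6935 UMIs per cell. Pairs of libraries shared 1 to 8 cell barcodes each among the kept cells, and the log counts of no such pair correlated above 0.655. Clusters were named from other marker genes, with all tight junction genes left out of the clustering, and each name stands for cells like that type. There were 8615 blood ECs (artery, vein and the capillary populations Cap-Rgcc and Cap-Kdr), 4001 lymphatic ECs (Lymph-Col and Lymph-Cap, the collecting and capillary populations) and 2659 perineurial-like cells. The summed level of 10 EC markers was 6908 to 7916 CPM in blood ECs and 345 to 644 CPM in perineurial-like cells. The summed level of 13 perineurial markers was at least 15890 CPM in perineurial-like cells and at most 165 CPM in blood ECs. *Acvrl1*, which encodes Alk1, was at 208 and 183 CPM in blood ECs of WT telogen and at 163 and 152 CPM in the KO (log2 fold change −0.36 ± 0.13, edgeR adjusted p = 0.063). By population it was called lower in Cap-Kdr (−0.88 ± 0.18, edgeR adjusted p = 0.00236) and differed by −0.07 ± 0.16 in artery (adjusted p = 0.83). KO perineurial-like cells had 4 and 0 UMIs of it. Tags from the 3′ end need not cover the deleted exons, so these levels do not check the deletion. CPM is the usual depth-scaled unit, a gene's UMIs over the UMIs of all cells of a population in a library. Since a tag is counted at the 3′ end, CPM are not divided by gene length, and levels are compared between cells and not between genes.

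In the mm10 reference (GRCm38, GENCODE vM21), *Cldn1* lies on chromosome 16 at 26356642 to 26371841 (minus strand, up to 4 exons) and *Cldn5* on the same chromosome at 18776847 to 18778262 (plus strand, 1 exon). *Cldn11* lies on chromosome 3 at 31149920 to 31164324 (plus strand, 3 exons). *Cldn22* lies on chromosome 8 at 47824482 to 47825476, as 1 exon inside *Wwc2* on the opposite strand, whose reads are told apart by the strand-aware counting of 3′ tags. The bases from 250 before to 50 after the start of these 4 genes are shown, in RefSeq's GRCm38.p6 and in the direction of transcription, because they head the claudins whose levels marked different cells below. Capitals mark GGAA or TTCC, the core bound by ETS factors, a family with many members in endothelium, searched on both strands.

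Cldn1, chr16:26371790-26372089, minus strand: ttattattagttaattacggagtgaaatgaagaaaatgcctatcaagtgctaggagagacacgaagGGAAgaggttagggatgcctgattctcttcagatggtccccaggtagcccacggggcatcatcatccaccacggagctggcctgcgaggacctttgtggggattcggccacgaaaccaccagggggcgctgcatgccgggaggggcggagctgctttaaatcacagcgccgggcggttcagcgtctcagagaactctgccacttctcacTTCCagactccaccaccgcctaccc
Cldn22, chr8:47824232-47824531, plus strand: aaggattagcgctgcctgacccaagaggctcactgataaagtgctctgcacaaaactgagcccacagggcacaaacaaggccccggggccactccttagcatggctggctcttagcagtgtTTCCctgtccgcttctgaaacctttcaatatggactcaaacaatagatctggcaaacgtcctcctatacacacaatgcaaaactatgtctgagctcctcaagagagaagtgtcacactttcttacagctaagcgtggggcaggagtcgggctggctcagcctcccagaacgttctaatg
Cldn5, chr16:18776597-18776896, plus strand: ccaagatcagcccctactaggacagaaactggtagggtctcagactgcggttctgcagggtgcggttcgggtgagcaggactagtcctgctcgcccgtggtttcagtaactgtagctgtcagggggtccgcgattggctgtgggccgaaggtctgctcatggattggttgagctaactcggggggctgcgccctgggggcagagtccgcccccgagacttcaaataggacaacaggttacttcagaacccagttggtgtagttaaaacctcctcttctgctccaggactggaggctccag
Cldn11, chr3:31149670-31149969, plus strand: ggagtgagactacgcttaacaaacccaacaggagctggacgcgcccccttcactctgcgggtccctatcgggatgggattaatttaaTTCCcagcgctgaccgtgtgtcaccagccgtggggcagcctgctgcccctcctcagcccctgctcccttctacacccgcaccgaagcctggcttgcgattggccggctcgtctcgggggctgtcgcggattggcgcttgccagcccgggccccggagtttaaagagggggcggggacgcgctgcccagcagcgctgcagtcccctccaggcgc

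The start region of *Cldn5* held 0 of these cores, that of *Cldn11* held 1, that of *Cldn22* held 1 and that of *Cldn1* held 2. Of 32851 RefSeq promoters of this length, 96% held at least 1 core, with a median of 3. The missing core says only that these letters are not in this window. CCGCCC or GGGCGG, the GC box, was in the windows of *Cldn1*, *Cldn5* and *Cldn11* and in 35.7% of all promoters, and *Cldn22* lacked it. ACAAT or ATTGT, the core bound by SOX factors, was in the *Cldn22* window and in 31% of all promoters. *F11r*, *Tjp1* and *Ocln* also had an entry, with 4, 3 and 2 ETS cores.

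*Cldn1* and *Cldn22* were the claudins of the perineurial-like cells. *Cldn1* was at 718 and 724 CPM there in WT telogen, at 596 and 600 CPM in anagen and at 593 and 663 CPM in the KO. It was at most 1.01 CPM in the blood ECs of any library and at most 2.54 CPM in lymphatic ECs. Perineurial-like cells overlapped neither type in any library, while blood and lymphatic ECs overlapped each other. Against blood ECs of the same 4 WT libraries, *Cldn1* was higher by 9.52 ± 0.17 on the log2 scale (edgeR adjusted p = 7.17e-10), in 4 of 4 libraries. Schwann-like cells held 329 ± 14.5 CPM (SD, n = 2, the telogen libraries that had enough of these cells). Their summed perineurial markers were 5052 and 5096 CPM, whose part in this level was not tested. Immune-like and fibroblast-like cells held 30.8 ± 6.54 and 30.7 ± 14.2 CPM (SD, n = 4) and overlapped each other. After each cell was thinned to 1500 UMIs, 60.4% of perineurial-like cells of the WT libraries had a *Cldn1* UMI (exact binomial interval 58.4 to 62.4), against 0.103% of blood ECs and 2.56% of immune-like cells. The unthinned shares were 88.4%, 0.362% and 8.05%, at median depths of 5288, 5546 and 11850 UMIs. These intervals cover counting alone, since cells of 1 library are not replicates.

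*Cldn22*, a claudin of less settled function, was at 169 and 286 CPM in perineurial-like cells of WT telogen, at 162 and 191 CPM in anagen and at 428 and 849 CPM in the KO. In the other 6 cell types compared it stayed at or below 7.60 CPM in every library with enough cells, and its levels in the 4 WT libraries did not overlap those of any other type. It was higher than in blood ECs by 9.59 ± 0.22 (log2, edgeR adjusted p = 1.12e-09). Within the perineurial-like cells it was unevenly spread over 2 clusters, which were found without junction genes. The larger cluster A (led by *Crabp2*, *Tnfsf8* and *Hcn4*) held 151, 227, 126 and 169 CPM in the WT libraries. Cluster B (led by *Pcp4*, *Shisa3* and *Tnnt3*, besides *Cldn22* itself) held 242, 440, 275 and 258 CPM, above cluster A in each of these libraries. *Cldn1* also stood higher in cluster B, at 936, 871, 705 and 707 CPM against 664, 668, 562 and 564 CPM. Of thinned cells, 18.8% had a *Cldn22* UMI in cluster A and 29.9% in cluster B. These differences between clusters are described and were not tested.

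**Figure D1:**
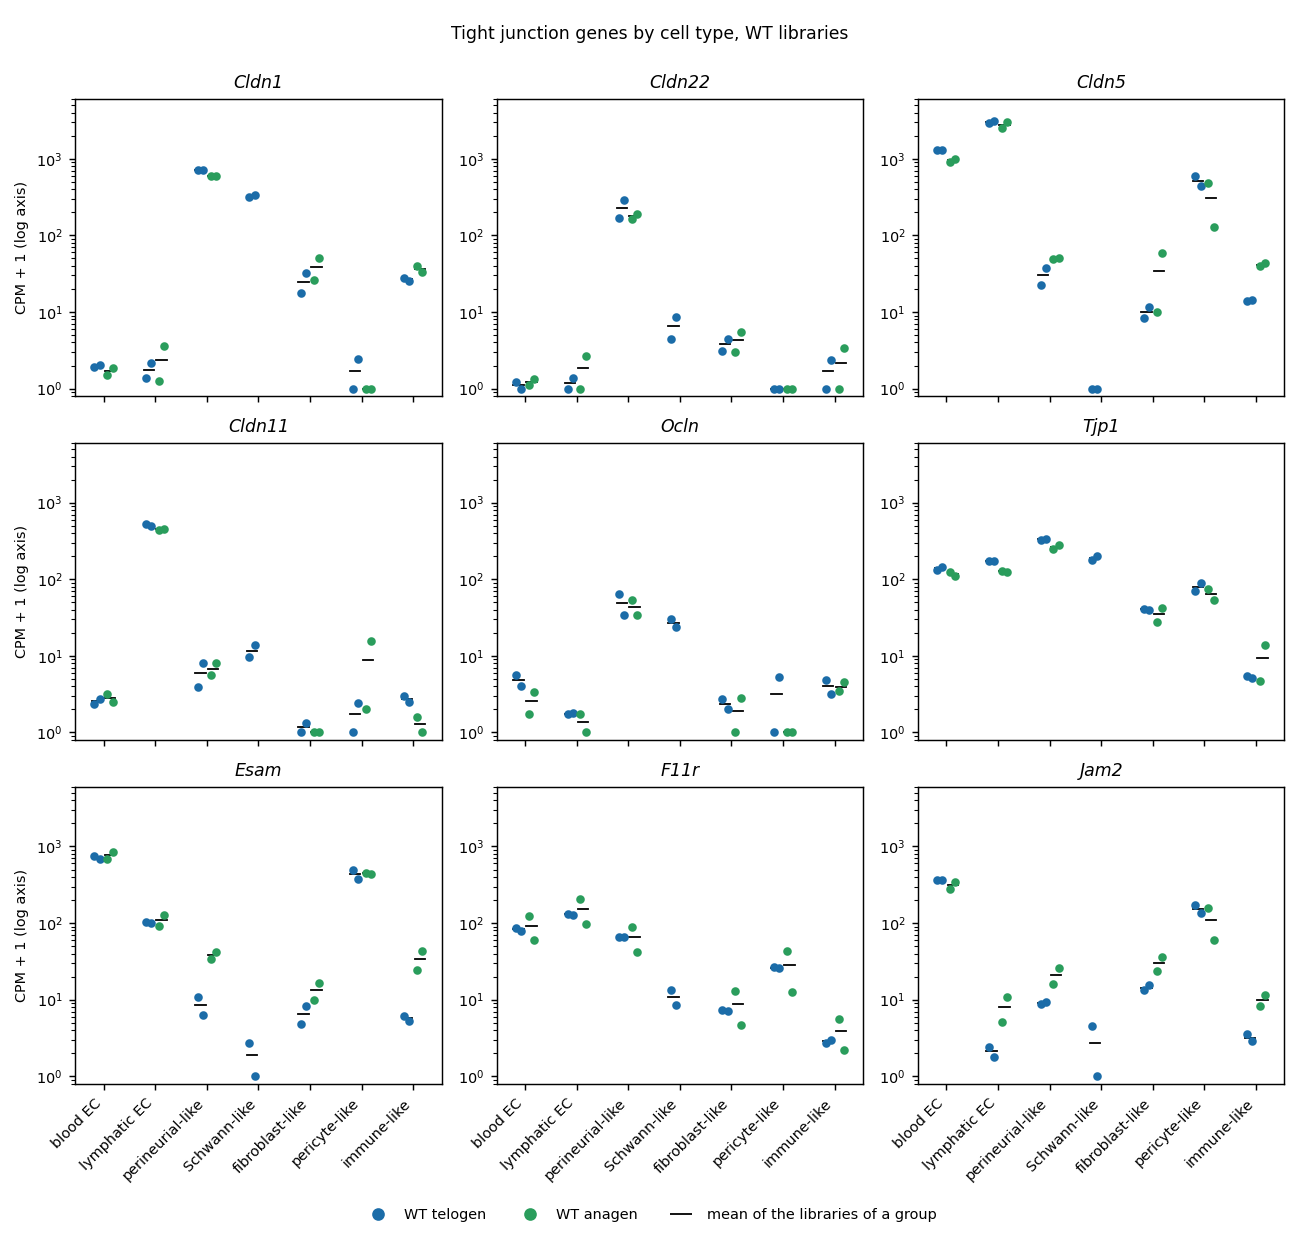
Level of each of the 9 genes (CPM + 1, log axis) in 7 cell types of the WT libraries. Each point is 1 library and each bar the mean of the libraries of a stage; Schwann-like cells are shown for the telogen libraries only. *Cldn1* and *Cldn22* peak in perineurial-like cells, *Cldn5* and *Cldn11* in lymphatic ECs, and *Esam* and *Jam2* in blood ECs.

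*Cldn5* was the claudin shared by the ECs, at very different levels along the vessel tree. In the WT libraries it was at 2891 ± 270 CPM in lymphatic ECs and at 1133 ± 212 CPM in blood ECs (SD, n = 4), a difference of 1.28 ± 0.09 (log2, edgeR adjusted p = 9.37e-08). Among the EC populations the order was Lymph-Col (3275 ± 343 CPM), artery (2466 ± 349), Lymph-Cap (2230 ± 177), Cap-Rgcc (1389 ± 717), Cap-Kdr (499 ± 70.2) and vein (90.5 ± 51.0). Each population overlapped the next in this order between libraries down to Cap-Rgcc, which overlapped Lymph-Cap. Cap-Rgcc did not overlap Cap-Kdr, and Cap-Kdr did not overlap vein. Arteries stood above all capillaries by 1.59 ± 0.10 and veins below them by 3.21 ± 0.15 on the log2 scale (edgeR adjusted p = 2.37e-08 and 2.62e-12). Of thinned cells, 88.5% of arterial, 51.1% of Cap-Rgcc, 36.2% of Cap-Kdr and 6.92% of venous ECs had a UMI, against 1.55% of immune-like cells. Perineurial-like cells held 38.9 ± 12.8 CPM, which overlapped immune-like cells (26.8 ± 15.7 CPM), and 1.96% of them had a UMI after thinning. That share is close to the immune-like background. Pericyte-like cells held 409 ± 197 CPM beside a summed EC marker level of 420 to 3360 CPM, whose part was not tested.

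*Cldn11* was nearly restricted to lymphatic ECs, with most of it in Lymph-Col. Lymphatic ECs of the 4 WT libraries held 527, 495, 432 and 458 CPM, and blood ECs held 1.36 to 2.14 CPM, a difference of 7.95 ± 0.14 (log2, edgeR adjusted p = 5.59e-13). Lymph-Col held 691 ± 51.7 CPM and Lymph-Cap 108 ± 21.9 CPM (SD, n = 4). The libraries of these populations did not overlap, and they differed by 2.79 ± 0.11 (log2, edgeR adjusted p = 8.50e-19). After thinning, 57.1% of Lymph-Col and 13.4% of Lymph-Cap cells had a UMI, against 0.0674% of immune-like and 0.266% of blood ECs. *Cldn5* was higher in Lymph-Col than in Lymph-Cap too, but by less (0.64 ± 0.08, adjusted p = 5.14e-08 in edgeR). Perineurial-like cells held 2.88 to 7.09 CPM of *Cldn11*. This was called higher than in blood ECs (1.55 ± 0.31, edgeR adjusted p = 0.0013) but not after perineurial-like cells with over 2 EC markers were left out (0.58 ± 0.34, adjusted p = 0.15). Fibroblast-like cells held 1 UMI of *Cldn11* in the 4 WT libraries against 80 in perineurial-like cells, a ratio of CPM of 41.3 (95% counting interval 7.20 to 1650).

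*Ocln* was highest in perineurial-like cells and, among the EC populations and at a low level, in arteries. Occludin transcripts were at 62.3, 33.6, 51.9 and 32.9 CPM in perineurial-like cells of the WT libraries, 26.2 ± 4.83 CPM in Schwann-like cells (SD, n = 2) and 0.714 to 4.54 CPM in blood ECs as a whole. The difference from blood ECs was 4.13 ± 0.33 (log2, edgeR adjusted p = 1.83e-06). Arteries held 11.4, 8.87, 2.51 and 8.11 CPM. All capillary ECs of these libraries together gave 1 UMI against 80 in arteries, a ratio of 143 with a 95% counting interval of 24.9 to 5720. After thinning, 0.516% of arterial ECs had a UMI (exact interval 0.258 to 0.921), against 0.404% of immune-like cells (0.209 to 0.705), which overlap. Thinned to 3000 UMIs, the shares were 1.82% (1.26 to 2.55) and 0.821% (0.521 to 1.23), which do not. These intervals cover counting alone, since the cells of a library are not replicates. By library, immune-like cells held 2.22 to 3.81 CPM of *Ocln*, which overlapped the arteries. Lymphatic ECs held 0.556 ± 0.372 CPM, below blood ECs by 2.07 ± 0.59 (log2, edgeR adjusted p = 0.0098).

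*Tjp1*, the scaffold, was found in every EC population and was highest in perineurial-like cells. It was at 329, 334, 246 and 280 CPM in perineurial-like cells, 178 and 198 CPM in Schwann-like cells, 148 ± 26.4 CPM in lymphatic ECs and 127 ± 14.7 CPM in blood ECs. Perineurial-like cells stood 1.08 ± 0.10 above blood ECs (log2, edgeR adjusted p = 4.59e-06), while the levels of lymphatic and blood ECs overlapped and differed by 0.13 ± 0.09 (adjusted p = 0.21 in edgeR). Veins had less *Tjp1* than capillaries (−0.38 ± 0.09, edgeR adjusted p = 0.0036), which came to −0.32 without WT telogen S1 and −0.33 without WT telogen S2, under the fold of 1.3 that a call required. In arteries the difference from capillaries was 0.27 ± 0.09, also under that fold.

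The immunoglobulin-superfamily members split the 2 kinds of EC. *Esam* was at 743, 681, 690 and 849 CPM in blood ECs of the WT libraries and at 102, 98.5, 91.0 and 126 CPM in lymphatic ECs, lower by 2.92 ± 0.09 in the latter (log2, edgeR adjusted p = 4.68e-11). *Jam2* was at 360, 361, 280 and 347 CPM in blood ECs and at 1.43, 0.782, 4.10 and 9.75 CPM in lymphatic ECs, lower by 6.49 ± 0.28 (edgeR adjusted p = 5.24e-10). Of thinned lymphatic ECs, 0.476% had a *Jam2* UMI, close to 0.505% of immune-like cells, against 37.2% of blood ECs. *F11r* went the other way and was higher in lymphatic ECs (139 ± 45.4 CPM) than in blood ECs (86.2 ± 26.6 CPM), by 0.61 ± 0.09 (log2, edgeR adjusted p = 4.65e-05). Its levels overlapped between the cell types when libraries were pooled, but lymphatic ECs were higher in 4 of 4 libraries. *F11r* moved with the library in each of these cells: anagen S1 was above anagen S2 in blood ECs (122 and 58.4 CPM), lymphatic ECs (203 and 95.8 CPM) and perineurial-like cells (87.9 and 40.4 CPM). Pericyte-like cells held 439 ± 47.8 CPM of *Esam* and 131 ± 50.6 CPM of *Jam2* beside the EC markers given above. Within blood vessels, *Jam2* was slightly higher in arteries and in veins than in capillaries (0.42 ± 0.08 and 0.41 ± 0.08, edgeR adjusted p = 0.00084 and 0.0007). *Esam* in arteries was 0.28 ± 0.07 below capillaries, which did not reach the fold required.

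Over all 9 members, 9 were called between perineurial-like cells and blood ECs, 5 higher and 4 lower, where 64.8% of all 12415 genes tested were called. Between lymphatic and blood ECs, 6 of the 7 tested were called, 3 in each direction, against 48% of all genes. Against fibroblast-like cells, 7 of 9 were called, 6 of them higher in perineurial-like cells, against 51.6% of all genes. The higher members were *Cldn1* (4.10 ± 0.21), *Cldn22* (5.73 ± 0.18), *Cldn11*, *Tjp1* (2.60 ± 0.12), *Ocln* (4.73 ± 0.31) and *F11r* (2.83 ± 0.18), and *Jam2* was lower (−1.06 ± 0.17). *Cldn5* and *Esam* differed by 0.71 ± 0.32 and 0.61 ± 0.31 in that comparison (edgeR adjusted p = 0.082 and 0.12). Without perineurial-like cells that held over 2 EC markers both turned to called falls, of 1.96 and 1.75. Fibroblast-like cells were not filtered in this way and kept summed EC markers of 191.5 to 398.3 CPM in the WT libraries. Leaving such cells out of the perineurial-like side alone lowers EC genes there, so this setting cannot rank the cell types for *Cldn5* and *Esam*. Between Lymph-Col and Lymph-Cap 4 of 6 were called, each higher in Lymph-Col (38.2% of all genes), between arteries and capillaries 3 of 6 were called (31.9%) and between veins and capillaries 3 of 5 (27.2%).

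Of 62 other tight junction genes from a list of claudins, related membrane proteins, scaffolds and polarity proteins, 29 were expressed highly enough to be tested between perineurial-like cells and blood ECs. Of these, 13 were higher and 8 lower in the perineurium, where 64.8% of all genes were called. The largest were *Ildr2* (8.08 ± 0.16), the adhesion receptor *Cxadr* (7.14 ± 0.18), *Clmp* (5.02 ± 0.18) and cingulin, *Cgn* (4.46 ± 0.61), which were higher, and the tricellular junction receptor *Lsr* (−4.89 ± 0.37) and *Cldn15* (−4.71 ± 0.44), which were lower (log2 differences). Against fibroblast-like cells, 9 of 27 were higher and 6 lower, where 51.6% of all genes were called. *Cldn10* was lower by 5.96 ± 0.25, and *Cxadr* (4.31 ± 0.41), *Cldn3* (3.62 ± 0.93), *Magi1* (2.71 ± 0.25), *Cgnl1* (2.32 ± 0.14) and *Ildr2* (2.09 ± 0.13) were higher. Between lymphatic and blood ECs, 8 of 26 were higher and 7 lower, where 48% of all genes were called. The polarity genes *Pard6g* (7.57 ± 0.13), *Pard3* (4.64 ± 0.16) and *Prkcz* (4.13 ± 0.17) and *Cxadr* (4.26 ± 0.26) were higher in lymphatic ECs, while *Cldn15* (−4.93 ± 0.25) and *Jam3* (−3.29 ± 0.15) were higher in blood ECs.

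Of 20 listed genes tested between Lymph-Col and Lymph-Cap, 3 were higher and 4 lower in Lymph-Col, where 38.2% of all genes were called. Lymph-Col had more *Cxadr* (3.02 ± 0.33) and *Pard3* (1.52 ± 0.14) and less *Cgnl1* (−1.82 ± 0.23), *Amotl2* (−1.41 ± 0.19) and *Lsr* (−0.73 ± 0.16), than Lymph-Cap. Arteries had more *Cgnl1* (3.60 ± 0.17), *Pard3* (2.15 ± 0.40) and *Lsr* (1.67 ± 0.17) and less JAM-C, *Jam3* (−3.53 ± 0.13), *Clmp* (−1.72 ± 0.34) and *Magi1* (−0.94 ± 0.12), than capillaries. There, 5 of 24 were higher and 4 lower, where 31.9% of all genes were called. Veins were lower for 9 of 21 and higher for 0, where 27.2% of all genes were called, led by *Jam3* (−2.68 ± 0.15), *Cldn15* (−1.63 ± 0.16), *Lsr* (−1.53 ± 0.23), *Clmp* (−1.06 ± 0.38), *Cgnl1* (−0.94 ± 0.33) and *Arhgef2* (−0.79 ± 0.11).

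Over 62 sums of 11 populations and 6 libraries, the genes whose log2(CPM + 1) followed *Cldn1* most closely among 8680 were *Lpar1* (Pearson r = 0.912), *Tenm2* (0.906), *Clip4* (0.9), *Foxd1* (0.892) and *Paqr6* (0.883), and *Cldn22* followed it with r = 0.842. For *Cldn5* they were *Dll4* (0.929), *Clic5* (0.925), *Hoxd10* (0.924), *Nova2* (0.907) and *She* (0.907). For *Cldn11* they were *Nts* (0.916), a marker that had been used to name lymphatic clusters, *Slc38a4* (0.89), *Dtx1* (0.875), *Sh3gl3* (0.861) and *Ahsg* (0.859). *Cldn1* and *Cldn5* ran in opposite directions (r = −0.732). The sums of a library share its depth, and those of a population share its identity, so these values describe likeness and carry no test.

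Between hair cycle stages no member was called in blood ECs. *Cldn5* was at 1319 and 1309 CPM in telogen and at 908 and 994 CPM in anagen, which did not overlap, but the difference of −0.32 ± 0.12 was not called (log2, edgeR adjusted p = 0.28). Of the 8 members tested, 1 had an unadjusted p under 0.05, and 0% of all 12801 genes were called by edgeR, with 2005 at an unadjusted p under 0.05 and 212 called by DESeq2. Cap-Rgcc, a capillary population added as a comparison after the data were seen, showed the clearest shift, from 2040 and 1976 CPM of *Cldn5* in telogen to 701 and 838 CPM in anagen. This fall of 1.27 on the log2 scale (SE 0.15, edgeR adjusted p = 0.0079) was called, as 1 of 5 members tested where 0.652% of all genes were called. In Cap-Kdr (525 and 449 against 586 and 436 CPM), artery and vein, *Cldn5* was not called and neither was any other member, where 0.0198%, 0.513% and 0.452% of all genes were called. The difference between Cap-Rgcc and the other populations was not tested. Cap-Rgcc held 121 and 116 cells in telogen and 524 and 780 in anagen. Without the Harmony correction it held 64 and 48 in telogen and 494 and 1093 in anagen. The fall of *Cldn5* in Cap-Rgcc was not recomputed without Harmony or under any other alternative setting. Cap-Rgcc made up 18.8% and 17.4% of blood ECs in telogen and 20.5% and 23.5% in anagen.

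Lymphatic ECs showed no called member between stages, of 6 tested, where 1.94% of all genes were called. Nor did Lymph-Col and Lymph-Cap alone, where 1.2% and 0.443% were called. *Cldn11* was at 527 and 495 CPM in telogen and at 432 and 458 CPM in anagen (−0.09 ± 0.13 on the log2 scale, edgeR adjusted p = 0.74). *Jam2* rested on 6 UMIs in telogen and 40 in anagen (2.60 ± 0.63, edgeR adjusted p = 0.063), and its difference from the response of blood ECs passed the test (2.69 ± 0.50, edgeR adjusted p = 0.044), as 1 of 7 members where 0.216% of all genes did. It was lost without WT telogen S2 (2.33 ± 0.65, edgeR adjusted p = 0.059) or WT anagen S2 (2.26 ± 0.54, adjusted p = 0.13). Immune-like cells also held more *Jam2* at anagen, at 1.89 to 2.51 CPM in telogen and 7.28 to 10.5 CPM in anagen. Its part in the lymphatic difference was not tested. Of the 62 other junction genes, 22 were tested here. *Cxadr* fell by 1.18 (SE 0.26) and *Pard3* by 0.95 (SE 0.17) at anagen in lymphatic ECs (log2, edgeR adjusted p = 0.045 and 0.025).

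No claudin was called between stages in perineurial-like cells. *Cldn1* differed by −0.19 ± 0.11, *Cldn22* by −0.29 ± 0.23, *Tjp1* by −0.25 ± 0.12 and *Ocln* by −0.12 ± 0.32 on the log2 scale (edgeR adjusted p = 0.39 to 0.91). *Esam*, a marker of blood ECs here, was called higher at anagen, from 9.69 and 5.26 to 33.4 and 40.7 CPM (2.43 ± 0.28, edgeR adjusted p = 0.013), 1 of 9 members where 0.672% of all genes were called. The call rested on cluster A (2.50 ± 0.29, edgeR adjusted p = 0.017, where 0.422% of all genes were called). No member of the 6 tested was called in cluster B, where 0.703% were, and *Esam* and *Jam2* had too few UMIs to be tested there. Over all perineurial-like cells, *Cldn5* and *Jam2* shifted the same way as *Esam* without a call (0.81 ± 0.24 and 1.42 ± 0.29). Perineurial-like cells with over 2 EC markers made up 1.83% and 2.81% of these cells in telogen and 6.82% and 5.99% in anagen, and their summed EC markers were 345 and 399 CPM in telogen and 644 and 593 CPM in anagen. Immune-like cells also had more *Esam* at anagen, with 5.18 and 4.29 CPM in telogen against 23.1 and 42.1 CPM. Their *Jam2* was at 1.89 to 2.51 CPM in telogen and at 7.28 to 10.5 CPM in anagen. Without the cells that held over 2 EC markers the difference in *Esam* was 1.80 ± 0.49 and was not called (edgeR adjusted p = 0.18). As differences from the response of blood ECs, *Esam* (2.19 ± 0.23, edgeR adjusted p = 0.0041) and *Jam2* (1.47 ± 0.22, edgeR adjusted p = 0.017) passed, 2 of 9 members where 0.677% of all genes did, and neither was called without those cells. *Jam2* was also lost without WT telogen S1 (1.36 ± 0.32, edgeR adjusted p = 0.08) or S2 (1.51 ± 0.32, adjusted p = 0.072).

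**Figure D2:**
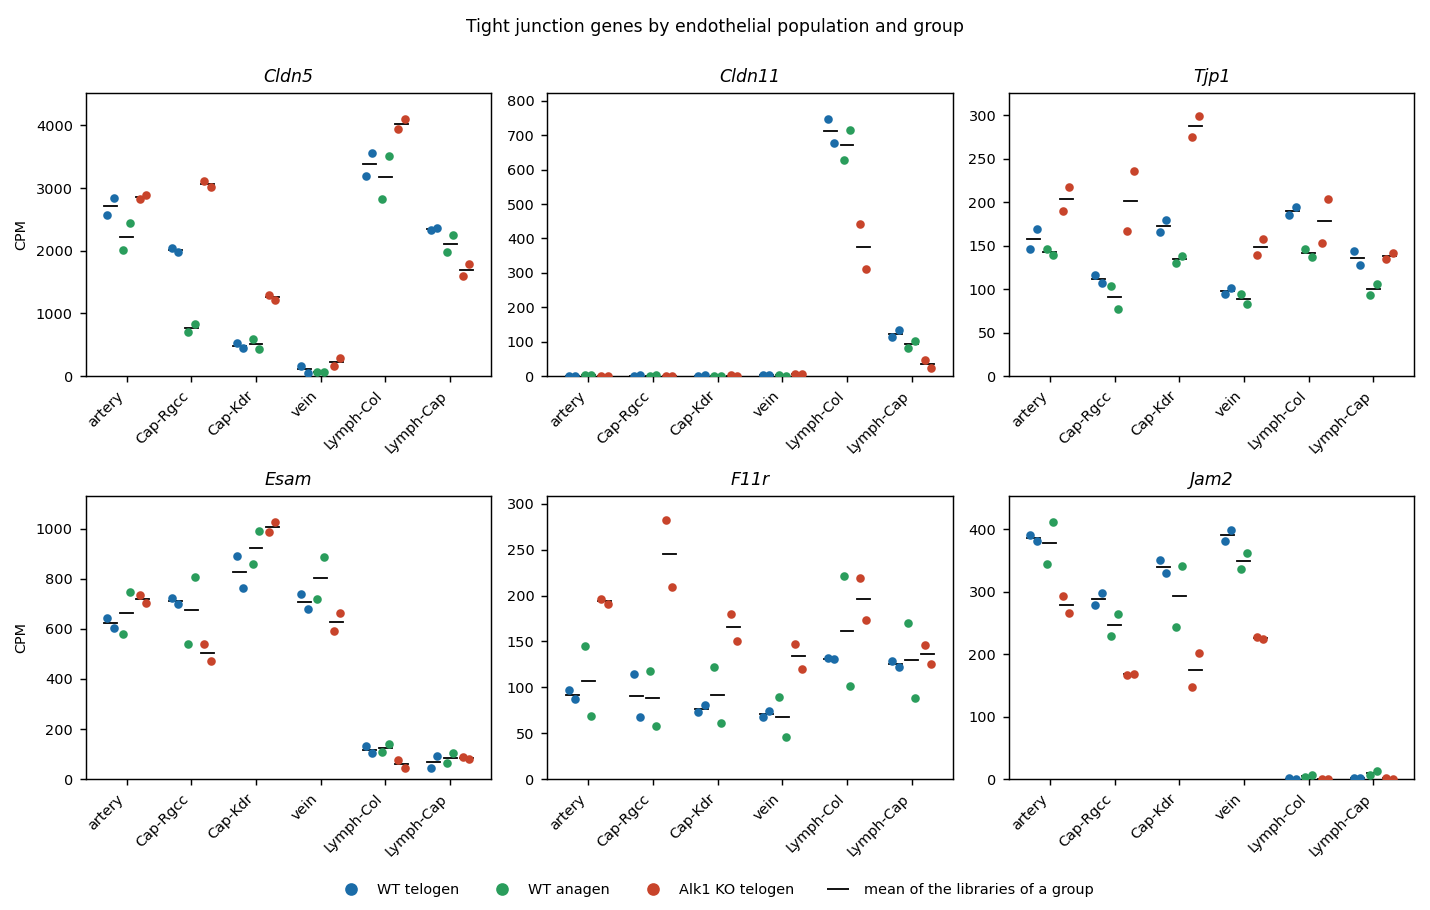
Level in CPM (linear axes from 0) of 6 genes in the EC populations of WT telogen, WT anagen and Alk1 KO telogen. Each point is 1 library and each bar the mean of a group. *Cldn11* in Lymph-Col is at 442 and 311 CPM in the KO, below all 4 WT libraries, and *Jam2* is lower in the KO in each of the 4 blood populations.

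In the Alk1 KO, 4 of the 6 members tested in blood ECs were called against WT telogen, where 33% of all genes were called. *F11r* rose from 85.7 and 78.7 CPM to 194 and 167 CPM (1.08 ± 0.14, edgeR adjusted p = 0.00054). As given above, *F11r* also varied between mice of the same group, at 122 and 58.4 CPM in the blood ECs of WT anagen. *Tjp1* rose from 132 and 144 CPM to 190 and 231 CPM (0.56 ± 0.13, edgeR adjusted p = 0.011). *Jam2* fell from 360 and 361 CPM to 215 and 222 CPM, by 0.78 on the log2 scale (SE 0.12, edgeR adjusted p = 0.0015). *Cldn5* rose from 1319 and 1309 CPM to 1713 and 1845 CPM (0.38 ± 0.13, edgeR adjusted p = 0.042). The KO libraries did not overlap WT telogen for any of these 4 genes. Without WT telogen S1 or S2 neither *Cldn5* (0.40 ± 0.25 and 0.35 ± 0.25, edgeR adjusted p = 0.27 and 0.36) nor *Tjp1* (0.51 ± 0.21 and 0.60 ± 0.21, adjusted p = 0.085 and 0.057) was called, and *Cldn5* came to 0.36 without KO S2, under the fold required. *Esam* was at 715 and 754 CPM and overlapped WT telogen at 743 and 681 CPM (−0.01 ± 0.13, edgeR adjusted p = 0.97), and *Ocln* was at 4.75 and 4.76 CPM (0.27 ± 0.38, edgeR adjusted p = 0.62). *Cldn1* had 2 UMIs and *Cldn22* 3 in the blood ECs of both KO libraries.

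The rise of *F11r* and the fall of *Jam2* were called within each of the 4 blood populations, comparisons that were added after the data were seen. The capillary populations hold most of their KO cells together with WT cells only after the Harmony correction. Without it, an EC cluster that could not be named held 439 and 472 KO cells and 2 to 4 cells of each WT library, while Cap-Kdr kept 38 and 23 KO cells and Cap-Rgcc 4 and 3. The changes within populations, *Cldn5* in Cap-Kdr included, were not recomputed without Harmony. Over the KO blood ECs that were still named, KO levels were 2.30 times those of WT telogen for *F11r*, 0.736 times for *Jam2*, 1.38 times for *Tjp1* and 1.57 times for *Cldn5* (edgeR adjusted p = 0.000639, 0.0475, 0.0493 and 0.00965). Artery held 159 and 219 of these KO cells and vein 49 and 29. In WT telogen artery held 211 and 221 cells, vein 119 and 130 and Cap-Kdr 233 and 259. Arteries, which have more *Cldn5* and *Jam2* than capillaries, were most of the KO cells but not of the WT cells. These ratios therefore compare unlike mixtures of populations. With the Harmony correction, *F11r* was higher by 1.07 ± 0.15 in artery, 0.92 ± 0.19 in vein, 0.97 ± 0.18 in Cap-Kdr and 1.43 ± 0.27 in Cap-Rgcc (log2, edgeR adjusted p = 0.000295 to 0.00557). *Jam2* fell by 0.46, 0.80, 1.10 and 0.78 in the same order (SE 0.15, 0.17, 0.18 and 0.21, edgeR adjusted p = 0.000492 to 0.0417). *Tjp1* was called in vein (0.58 ± 0.18), Cap-Kdr (0.59 ± 0.16) and Cap-Rgcc (0.84 ± 0.23) and was 0.37 ± 0.15 higher in artery (edgeR adjusted p = 0.11). *Cldn5* was called in Cap-Kdr alone, from 525 and 449 to 1298 and 1218 CPM (1.23 ± 0.17, edgeR adjusted p = 0.000143). It went from 2040 and 1976 to 3119 and 3025 CPM in Cap-Rgcc (0.61 ± 0.21, edgeR adjusted p = 0.051) and differed by 0.08 ± 0.13 in artery and by 0.95 ± 0.39 in vein. Arteries had 2 of 6 members called (18.7% of all genes), veins 3 of 5 (20.8%), Cap-Kdr 4 of 5 (34.5%) and Cap-Rgcc 3 of 5 (17.9%). Cap-Kdr made up 39.1% and 41% of blood ECs in the KO and 29.6% and 30.3% in WT telogen.

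In lymphatic ECs the KO had less *Cldn11*. It was at 527 and 495 CPM in WT telogen and at 177 and 126 CPM in the KO, a fall of 1.81 on the log2 scale (SE 0.17, edgeR adjusted p = 0.000112). The share of Lymph-Col, the population with most *Cldn11*, was 61% and 63% of lymphatic ECs in WT telogen and 37.5% and 38.3% in the KO. The fall was present inside both populations: by 0.99 (SE 0.18) in Lymph-Col, from 747 and 676 to 442 and 311 CPM, and by 1.87 (SE 0.25) in Lymph-Cap, from 112 and 134 to 45.7 and 24.1 CPM (log2, edgeR adjusted p = 0.00269 and 0.000282). *Esam* was also called (−0.45 ± 0.14, edgeR adjusted p = 0.047), which came to −1.07 ± 0.23 in Lymph-Col (adjusted p = 0.0089 in edgeR) and 0.30 ± 0.24 in Lymph-Cap (adjusted p = 0.44). The call over all lymphatic ECs was lost without WT telogen S1 (−0.42), WT telogen S2 (−0.49) or KO S2 (−0.29). In all, 2 of 5 members were called, both lower, where 24.9% of all genes were called, and 2 of 5 were called in each of Lymph-Col and Lymph-Cap, where 17.3% and 16.2% were. *Cldn5* differed by −0.34 ± 0.10, under the fold required (edgeR adjusted p = 0.039). By population it went from 3193 and 3562 to 3938 and 4105 CPM in Lymph-Col (0.18 ± 0.11, edgeR adjusted p = 0.28) and from 2332 and 2364 to 1601 and 1796 CPM in Lymph-Cap, where it was called (−0.51 ± 0.12, edgeR adjusted p = 0.014).

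The response of lymphatic ECs differed from that of blood ECs for 4 of 7 members, each shifted lower in lymphatic ECs, where 19.6% of all genes differed. They were *Cldn11* (−2.21 ± 0.48), *F11r* (−0.88 ± 0.15), *Tjp1* (−0.81 ± 0.15) and *Cldn5* (−0.74 ± 0.12), with edgeR adjusted p = 0.0046, 0.00092, 0.0015 and 0.00071 and log2 differences between the KO effects. *Cldn11* in that test rests on few UMIs in blood ECs (13 in WT telogen and 17 in the KO), and it was not called without KO S1 (−1.80 ± 0.73, edgeR adjusted p = 0.14). *F11r* itself was at 171 and 142 CPM in KO lymphatic ECs against 131 and 128 CPM (0.22 ± 0.13, edgeR adjusted p = 0.27). By population the difference was 0.50 ± 0.17 in Lymph-Col (edgeR adjusted p = 0.064) and 0.07 ± 0.16 in Lymph-Cap (adjusted p = 0.82), neither called. The pooled value mixes these populations, whose shares differed in the KO as given above. Differences in response were not tested by population.

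**Figure D3:**
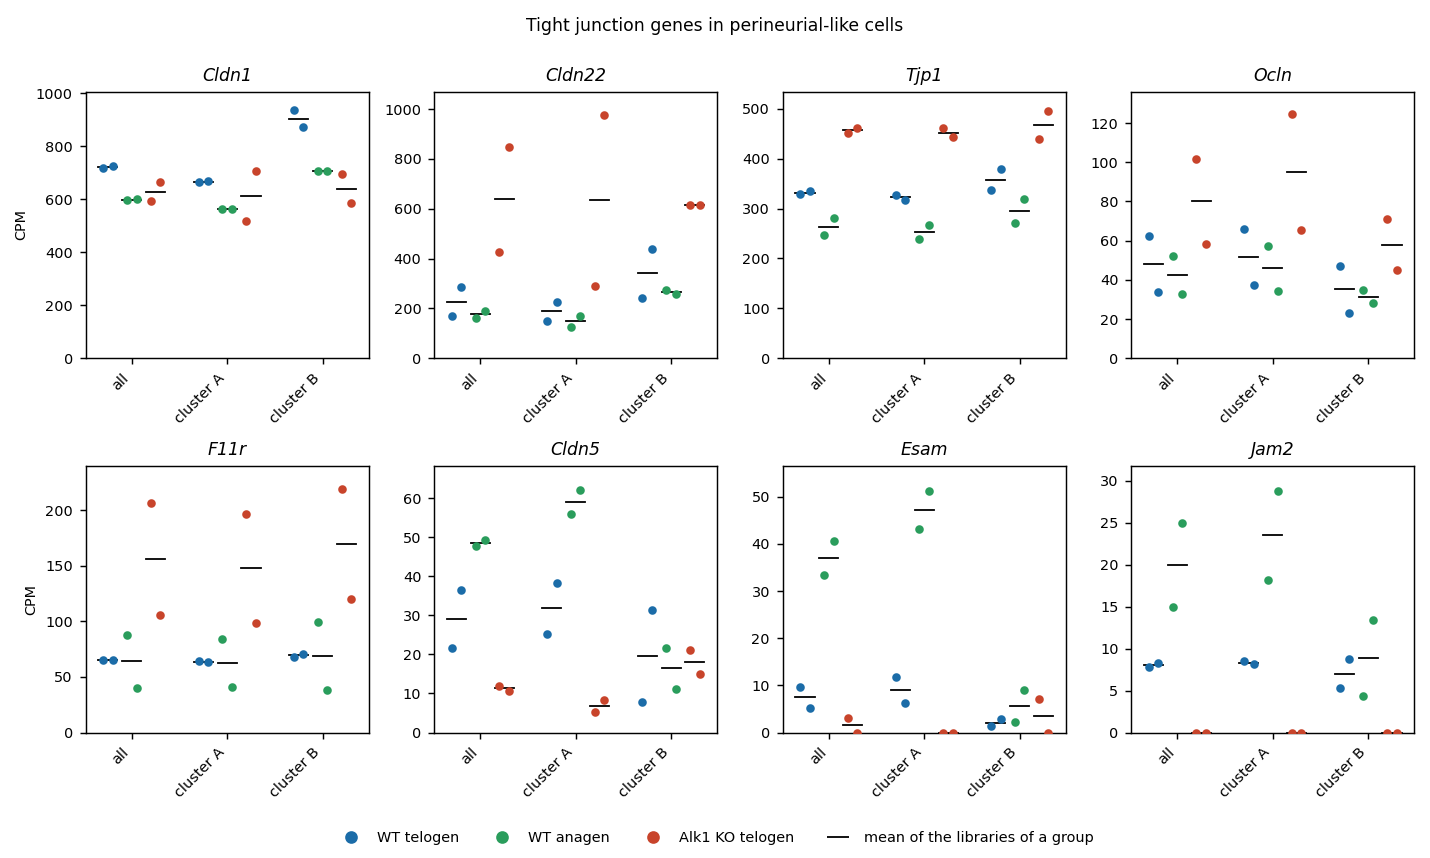
Level in CPM (linear axes from 0) of 8 genes in perineurial-like cells and in their clusters A and B. Each point is 1 library of WT telogen, WT anagen or Alk1 KO telogen and each bar the mean of a group. *Cldn22* and *F11r* are higher in both KO libraries than in all WT libraries, while *Jam2* has no UMI in the KO.

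Perineurial-like cells were few in the KO, with 87 and 61 cells against 548 and 854 in WT telogen. *Cldn1* was at 593 and 663 CPM against 718 and 724 CPM, and the difference of −0.29 ± 0.20 was not called (log2, edgeR adjusted p = 0.34). *Cldn22* was called higher (1.36 ± 0.30, edgeR adjusted p = 0.0054), with 428 and 849 CPM against 169 and 286 CPM. *F11r* was called too (1.28 ± 0.27, edgeR adjusted p = 0.0038), with 207 and 106 CPM against 64.9 and 65.2 CPM. These were 2 of 9 members, where 21.4% of all genes were called. *Tjp1* was at 452 and 462 CPM against 329 and 334 CPM and *Ocln* at 102 and 58.4 CPM against 62.3 and 33.6 CPM, neither of which was called (0.38 ± 0.20 and 0.77 ± 0.38, edgeR adjusted p = 0.2 and 0.17).

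Both calls depended on a library. Without WT telogen S1 the difference in *Cldn22* was 1.01 ± 0.47 (edgeR adjusted p = 0.13), and without KO S1 that in *F11r* was 0.47 ± 0.29 (edgeR adjusted p = 0.37). The share of cluster B, which holds more *Cldn22*, was 27.7% and 33.3% in WT telogen and 49.4% and 50.8% in the KO. *Cldn22* was higher by 1.56 ± 0.38 in cluster A (edgeR adjusted p = 0.014) and by 0.81 ± 0.30 in cluster B (adjusted p = 0.085 in edgeR), and *F11r* was called in both clusters (1.22 ± 0.31 and 1.38 ± 0.33). Of all genes, 14.1% were called in cluster A and 17.1% in cluster B. Other markers moved as well: the summed fibroblast list was 5794 and 6172 CPM in WT telogen and 1039 and 881 CPM in the KO, and 5 skeletal muscle genes summed to 172 and 209 CPM in WT telogen and to 4045 and 552 CPM in the KO. In cluster A the muscle genes were at 62.2 and 32.8 CPM in the KO, with *Myh4*, *Ckm* and *Myl1* at 0 in both libraries. In cluster B they were at 9481 and 1502 CPM in the KO and at 175 and 268 CPM in WT telogen, with *Myh4* at 0 throughout. The muscle list holds *Tnnt3*, a leading gene of cluster B, so these sums include a gene of the perineurial-like cells themselves. A summed list of 4 adipocyte genes was at 390 and 300.5 CPM in KO cluster B, with *Lep* at 0, at 2.63 and 0.729 CPM in WT telogen cluster B, and at 0 in cluster A of every library. The part of these markers in the results was not tested.

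The vessel members were sparse in KO perineurial-like cells. *Jam2* had 0 UMIs among 522477, against 8.11 CPM in WT telogen, and the difference was not called (edgeR adjusted p = 0.061). A floor of 3 counts over the KO sum gave a bound 1.41-fold below WT telogen, and the 95% counting interval of the ratio reached up to 0.871. Both cover counting alone. *Esam* had 1 UMI, a ratio of 0.266 to WT telogen (95% counting interval 0.00674 to 1.48). *Cldn5* had 6, a ratio of 0.382 (counting interval 0.14 to 0.832, difference −1.43 ± 0.62, edgeR adjusted p = 0.12). As a difference from the response of blood ECs, *Cldn5* was the 1 member of 9 that passed (−2.00 ± 0.52, edgeR adjusted p = 0.0061), where 8.38% of all genes did. It did not pass in DESeq2 or without cells that held over 2 EC markers (−0.23). The median of all genes in that test was −0.28 in edgeR and −0.03 in DESeq2, so that the difference of *Cldn5* is to be read against that shift, and 34.1% and 59.9% of the calls were higher in the perineurium.

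**Figure D4:**
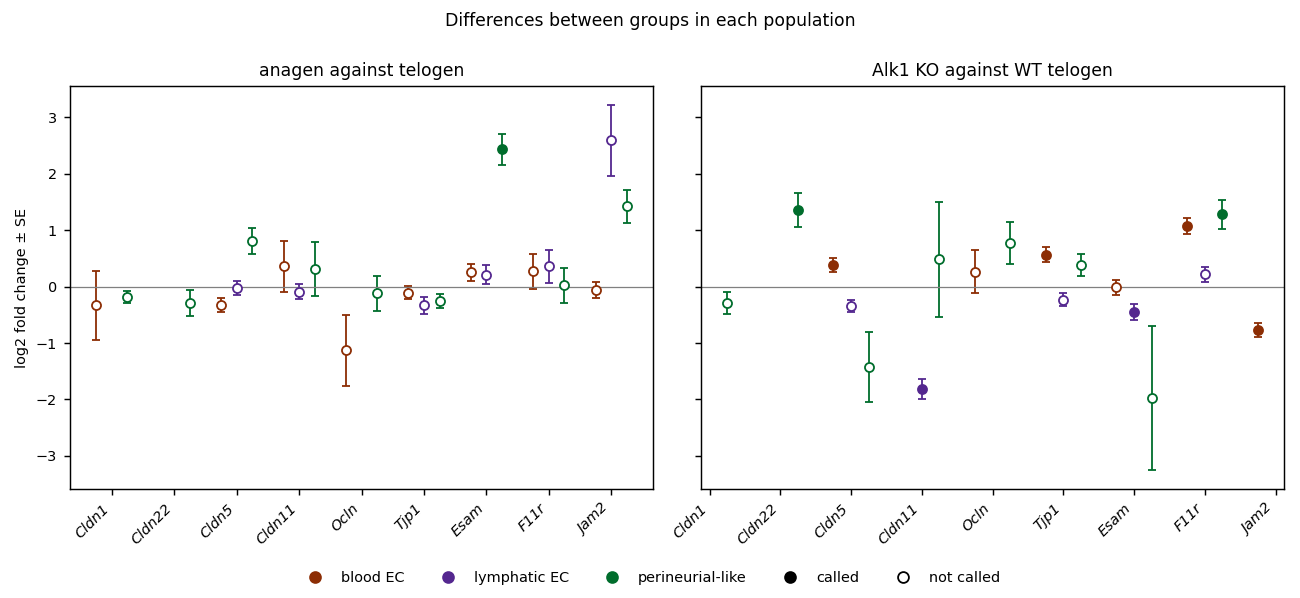
Log2 fold change ± SE of each gene between anagen and telogen (left) and between Alk1 KO and WT telogen (right) in blood ECs, lymphatic ECs and perineurial-like cells, with 2 libraries per group. Filled points were called; genes that were not tested in a population, and *Jam2* in KO perineurial-like cells, which had no UMI, are not drawn. *Esam* in perineurial-like cells is the single call on the left, and *Cldn11* in lymphatic ECs is the lowest point called on the right.

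Other junction genes in the KO followed no single direction. In blood ECs, 4 of 23 tested were higher and 2 lower, where 33% of all genes were called. *Cldn15* (1.41 ± 0.18), *Magi3* (1.17 ± 0.19), *Cgnl1* (0.84 ± 0.23) and *Magi1* (0.64 ± 0.13) rose, and *Jam3* (−0.93 ± 0.19) and *Cldnd1* (−0.72 ± 0.15) fell. Lymphatic ECs had 3 of 25 higher and 5 lower, where 24.9% of all genes were called. *Amotl2* (1.37 ± 0.16) and *Lsr* (1.23 ± 0.16) rose there, and *Pard3* (−1.29 ± 0.13), *Cxadr* (−1.01 ± 0.24) and *Mpp5* (−0.81 ± 0.18) fell. In perineurial-like cells 2 of 24 were higher and 3 lower, where 21.4% of all genes were called. *Prkcz* (2.07 ± 0.62) and *Amotl2* (1.85 ± 0.21) rose, and *Jam3* (−2.09 ± 0.58), *Clmp* (−1.58 ± 0.27) and *Cldnd1* (−0.88 ± 0.24) fell, with log2 fold changes ± SE from edgeR throughout. In the lymphatic cells, *Pard3* and *Cxadr* were genes that Lymph-Col had more of than Lymph-Cap, and *Amotl2* and *Lsr* were genes it had less of, beside the lower share of Lymph-Col in the KO given above. The median log2 fold change of the listed genes tested was 0.08 in blood ECs, 0.05 in lymphatic ECs and −0.27 in perineurial-like cells, against 0.02, 0.03 and −0.05 over all genes. That of the members tested was 0.32, −0.34 and 0.38, the last of which is the same with *Jam2* at its bound.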

How the data were processed

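Skin cells of 6 mice were profiled with 10x 3′ v3 libraries. Per the labels and the study's methods, the authors sequenced them on a NextSeq-500 and aligned and counted reads with Cell Ranger 6.0.1 on mm10. The deposited values are raw UMI counts per gene and cell, not normalised, with 1 matrix per library. Cells with 200 to 5000 genes and under 10% mitochondrial UMIs were kept, and no doublets were removed in the main analysis. With tight junction genes left out, 3000 variable genes gave 30 principal components, which were corrected with Harmony and clustered (Leiden 0.6, scanpy 1.11.5). A cluster was named where at least 3 markers were at least 2-fold higher in at least 25% of its cells and its 10 leading genes did not go against the name. Clusters far shallower than their libraries, with at most 1 of the type's markers among the leading genes, stayed unnamed.

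Counts were summed per library and population. Sums of at least 20 cells were tested with edgeR 4.0.16 (TMM, filterByExpr, quasi-likelihood F test, Benjamini-Hochberg adjustment over all genes tested), and genes were called at adjusted p under 0.05 with a fold above 1.3. SE is the size of the log2 fold change divided by the square root of F. Cell types were compared in the 4 WT libraries with the library as a block, groups as 2 against 2 libraries, and differences in response in a joint fit. DESeq2 1.42.0 and other settings were alternatives, and the differential tests were tested on simulated data. Of simulated 2-fold changes, 68.7% to 88.1% were recovered between cell types and 43.3% to 52.2% between stages. In the KO it was 25.4% (perineurial-like cells) to 64.2% (blood ECs), and for differences in response 17.9% to 46.3%. A gene that was not called can therefore still differ. P-values rest on 2 mice per group. Members, marker lists and junction genes were chosen with earlier results of these data known. Named genes were the 9 members, the 6 other listed junction genes with the largest called changes per comparison, and the 5 genes most like a claudin. A gene that this rule names is not reported here. EC subtypes and perineurial clusters were compared as an addition after the data were seen. The numbers S1 and S2 pair no libraries.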

Additional observations from a re-analysis of the deposited data

Results flagged for a closer look

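Differences in response between cell types were singled out where the test of the difference itself passed (log2 difference from the response of blood ECs, edgeR, 2 libraries per group). Between anagen and telogen, lymphatic ECs differed for *Jam2* (2.69), and perineurial-like cells differed for *Esam* (2.19) and *Jam2* (1.47). Between Alk1 KO and WT telogen, lymphatic ECs differed for *Cldn5* (−0.74), *Cldn11* (−2.21), *Tjp1* (−0.81) and *F11r* (−0.88), and perineurial-like cells for *Cldn5* (−2.00). Groups of 2 libraries are too small to look for a single library far from the rest.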

How the results depend on the processing

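Of 49 called results for single members in the 16 main comparisons, 32 kept their direction and call under every alternative run. Stage and KO comparisons within single EC populations and perineurial clusters are not among them and were run under the main setting alone. Over the 566 alternative values of these 49, 511 kept the call, 55 lost it and 0 changed direction. Of 68 results that were not called, 18 were the same throughout. Of their 785 alternative values, 655 were the same, 93 moved by more than the SE without a call, 35 became called in the same direction and 2 reversed. Those 2 were *Cldn5* (−1.96) and *Esam* (−1.75) in perineurial-like against fibroblast-like cells, once perineurial-like cells with over 2 EC markers were left out. That alternative was chosen after seeing the data and left the fibroblast-like cells unfiltered.

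Counts of members called changed as follows. Arteries against capillaries gave 6 with no fold threshold, and veins against capillaries gave 1 with stricter cell filters. Lymphatic ECs gave 1 between stages with the replicate block, and 1 in the KO with no filter on low counts, DESeq2, stricter cells, no Harmony correction or all 6 libraries in a joint fit. Perineurial-like cells between stages gave 2 with no filter, 3 with the replicate block and 0 with stricter cells, without likely doublets or without EC-marker cells. In the KO they gave 4 with no filter and 1 with all 6 libraries. The differences in response gave 0 between stages for lymphatic ECs without doublets, at resolution 1.2 or without Harmony, 0 for perineurial-like cells with stricter cells, without doublets or without EC-marker cells, and 0 in the KO for perineurial-like cells with DESeq2, without doublets or without EC-marker cells. The cause was not tested.

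Leaving out a library in turn gave members called of 9 to 9 (perineurial-like against blood EC), 5 to 6 (lymphatic against blood EC), 7 to 8 (against fibroblast-like), 4 to 4 (Lymph-Col), 2 to 4 (artery) and 2 to 3 (vein). Between stages it gave 0 to 2 in blood ECs, 0 to 1 in lymphatic ECs and 1 to 2 in perineurial-like cells. In the KO it gave 2 to 4, 1 to 2 and 1 to 2. The differences in response gave 0 to 1 and 1 to 4 between stages and 4 to 4 and 0 to 1 in the KO. A lone library was then assumed to vary like the other group.

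Over all genes, edgeR and DESeq2 called 0 and 212 (blood EC, stages), 3703 and 2333 (Lymph-Col), 3725 and 2271 (blood EC, KO), 2730 and 1569 (lymphatic EC, KO), 75 and 135 (perineurial-like, stages), 2393 and 839 (lymphatic response, KO) and 1067 and 369 (perineurial response, KO). Same-numbered libraries did not deviate together (r −0.057 to 0.063), so the pairing by replicate number is not part of the design. Depth limits the perineurial-like KO comparison, whose KO libraries held 522477 UMIs in these cells.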
